A study of Pinus pinaster with 8 samples.

Results

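The positions described here are the 127 of 4223 on a spotted cDNA microarray (3.01%) that lay furthest on the negative side when differentiating compression xylem (Cx) was set against differentiating opposite xylem (Ox). They were chosen on the ratios themselves. The 4 arrays titled opposite against compression were multiplied by -1, so that all 8 arrays ran the same way, and a position was taken when the plain mean of its 8 turned log2 ratios was at most -1.5 and each single ratio was below 0. The condition on single arrays removed 0 positions, so the limit on the mean alone set the membership. The ratios between Cx and Ox below are therefore a description of what was chosen.

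Differentiating secondary xylem of field-grown adult maritime pine (*Pinus pinaster*) was compared between both sides of a bent stem. The stems of 4 trees, aged 25, 35, 28 and 28 years, had been bent by 45 degrees away from the vertical for 2 months, so Cx and Ox came from the same leaning stems and no upright stem entered. In 4 arrays, called Cx in Cy3 here, the Cx target carried the dye Cy3 and the Ox target Cy5, and in the other 4, called Cx in Cy5, the dyes were exchanged. Labelled targets were amplified RNA, the labels number the replicates of each orientation 1 to 4 and give each number its own tree, and the methods describe 4 hybridisations on slides that each carried 2 copies of the array. Replicates 1 and 2, and likewise 3 and 4, may thus be closer than separate trees would be.

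When a conifer stem leans, its lower side forms compression wood, a reaction wood that pushes the stem back towards the vertical as it grows. Its tracheids are short and round in section, with thick walls rich in lignin and galactan and poor in cellulose, whereas opposite wood forms on the upper side and is closer to normal wood. Differentiating xylem holds cells that are expanding, laying down the secondary wall or lignifying, and its RNA is used to find genes that set these wood types apart. The probes were randomly picked clones of 4 subtractive cDNA libraries, made in both directions between Cx and Ox and between juvenile and mature xylem. Subtraction enriches for transcripts that differ between samples, so the array is no even sample of the genes of the tissue.

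The positions are identified by plate, row and column of the clone collection, as in Q5G4 for plate 5, row G, column 4. The table does not pair these identifiers with genes, so no gene name, function or sequence is given for any of them, and gene lists of lignin, cell wall and cytoskeleton genes were not analysed here. Several positions may carry the same cDNA, and 127 positions are therefore not 127 genes.

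The direction of the deposited ratio is not stated in the table. The methods speak of the ratio between Cy3 and Cy5 without fixing which is on top, and the software used, limma, takes Cy5 over Cy3 by convention. Under that convention the turned ratio is Ox over Cx, which is also the way the study plots its ratios, and a negative value means a higher signal in Cx. The study describes a surplus of spots on the Cx side. In the table, the negative side is the fuller one (127 positions at or below -1.5, against 56 at or above 1.5). The positions were thus likely higher in Cx than in Ox. If Cy3 had been on top, every sign would turn and the same positions would be higher in Ox, so the values are given as ratios on the negative side.

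The mean turned ratios of the 127 positions ran from -4.48 to -1.504, with a median of -2.14 and middle values between -2.74 (lower quartile) and -1.64 (upper quartile). As folds, the limit itself stood for 2.83-fold, the median for 4.41-fold and the lowest position for 22.4-fold. The negative side was fuller than the positive one at each limit counted up to 4. There were 70 positions at or below -2 against 21 at or above 2, 22 at or below -3 against 3 at or above 3, and 2 at or below -4 against 1 at or above 4. Of the 851 positions (20.2% of all) whose turned ratio was below 0 on all 8 arrays, the members made up 14.9%.

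The limit fell in a dense part of the distribution. Within 0.1 of it lay 25 positions inside and 24 outside. Just inside were Q8L3 (mean -1.51), Q7C3 (mean -1.51) and Q5P14 (mean -1.504). Just outside were Q8N8 (mean -1.497), Q3J22 (mean -1.49) and Q4F17 (mean -1.48), each with 8 ratios below 0. No gap separated the members from the next positions.

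The median ratio of the members on the single arrays was -2.27, -2.28, -2.04 and -2.07 on Cx in Cy3 replicates 1 to 4, and -2.31, -2.36, -2.02 and -1.93 on Cx in Cy5 replicates 1 to 4. In both orientations replicates 1 and 2 had the lower medians. Averaged over arrays, this median was -2.16 ± 0.13 for the Cx in Cy3 arrays and -2.15 ± 0.21 for the Cx in Cy5 arrays (SD, n = 4 each). Neighbouring replicates may be copies on the same slide, so these 4 arrays may not be 4 separate units. Between 120 and 127 members were at or below -1 on an array, where 6.73% to 8.43% of all positions were. The single ratios closest to 0 were those of Q4M5 (-0.22) and Q4L5 (-0.44) on Cx in Cy3 replicate 3 and of Q2C9 (-0.45) on Cx in Cy5 replicate 4.

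**Figure D1:**
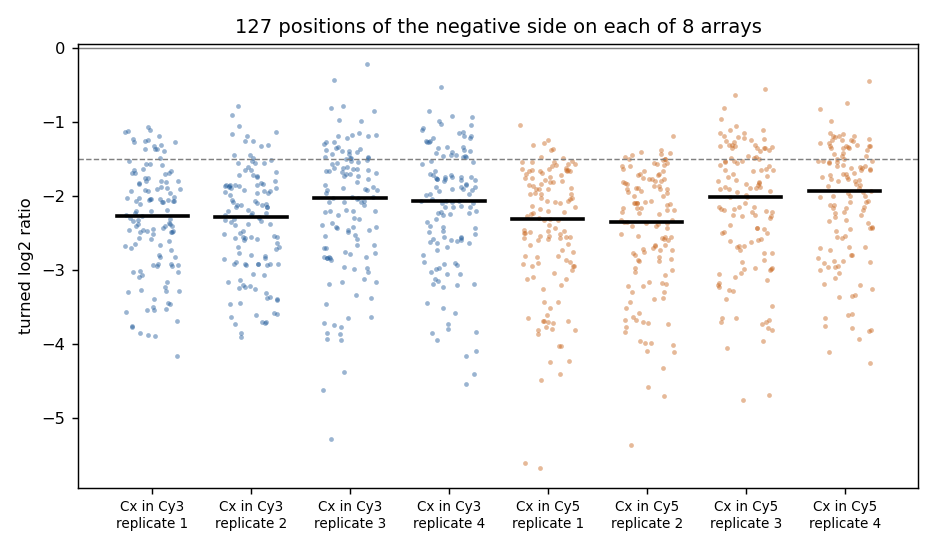
Turned log2 ratios (vertical axis) of the 127 members on each of the 8 arrays, 1 point a position, with Cx in Cy3 in blue and Cx in Cy5 in orange; black bars are medians, the dashed line is the limit of -1.5 on the mean. The medians lie between -2.36 and -1.93, and all points are below 0.

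The arrays as a whole were centred alike and differed in width. After turning, the medians of all 4223 positions were between -0.02 and 0.03, and the SD between 0.65 and 0.76. The scaled median absolute deviation, a measure of the width of the bulk of positions, was 0.32 and 0.34 on Cx in Cy3 replicates 1 and 2 and 0.43 to 0.51 on the other 6 arrays. On the same pair of arrays the members' slope on the mean of the other 7 arrays was 0.74 on each. It was 0.83 on Cx in Cy5 replicate 4 and 0.97 to 1.18 on the remaining arrays. The members' ratios were not smaller in size on that pair. Their median difference from the mean of the other 7 arrays was -0.14 on Cx in Cy3 replicate 1 and -0.18 on replicate 2. Depth cannot be given, since the table holds ratios without intensities, and the small number of arrays limits the precision.

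The lowest mean belonged to Q5G4. Its ratios were -3.50, -3.72, -5.29 and -4.40 on Cx in Cy3 replicates 1 to 4 and -5.67, -4.70, -4.76 and -3.83 on Cx in Cy5 replicates 1 to 4. The 2 orientations overlapped, and the lowest and highest ratios stood in different orientations. The mean over the 4 tree numbers, each the mean of the same-numbered arrays of both orientations, was -4.48 ± 0.41 (SD, n = 4), 22.4-fold.

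Q4H22 had practically the same mean. It had -4.16, -3.25, -4.38 and -4.16 on Cx in Cy3 replicates 1 to 4 and -5.61, -5.37, -4.68 and -4.25 on Cx in Cy5 replicates 1 to 4. Here replicates 1 and 2 of Cx in Cy5 were the lowest, and replicate 2 of Cx in Cy3 stood highest. The mean was -4.48 ± 0.30 (SD, n = 4), 22.3-fold. A gap of 0.48 separated this pair of positions from the third, Q4B12, with a mean of -4.00 ± 0.19 (SD, n = 4) and ratios between -4.62 and -3.36.

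Q4L13, the fourth, varied least over the column pairs. Its ratios were -3.69, -3.85, -3.85 and -3.85 on Cx in Cy3 replicates 1 to 4 and -3.81, -3.84, -4.06 and -3.93 on Cx in Cy5 replicates 1 to 4. All 8 arrays gave nearly the same ratio, with a mean of -3.86 ± 0.09 (SD, n = 4), 14.5-fold. The next 8 positions were close together, with means from -3.62 to -3.46: Q6L21, Q4J23, Q4N23, Q4O24, Q5G12, Q4A18, Q3I20 and Q4N9. Neighbours in this order differed by less than their spread, as the SD over tree means was 0.14 to 0.41 for these 8.

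**Figure D2:**
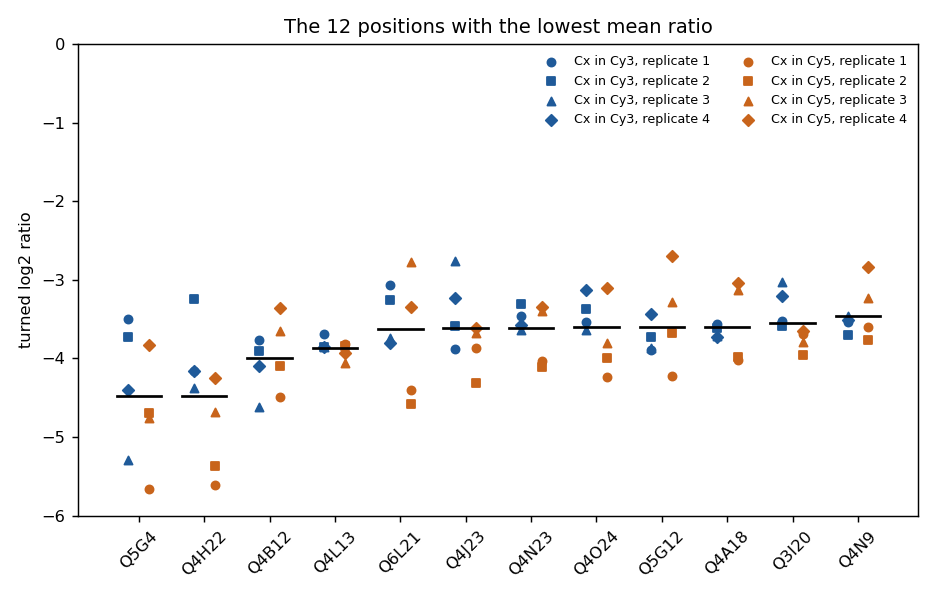
Turned log2 ratios (vertical axis) of the 12 members with the lowest means (horizontal axis, lowest mean at the left), with Cx in Cy3 in blue and Cx in Cy5 in orange, a marker shape for each replicate number and a bar at the mean of 8 arrays. Q5G4 and Q4H22 stand below the others at -4.48, and the points of Q4L13 lie closest together.

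Position by position, the members differed widely in how stable their ratio was. The SD over the 4 tree means was between 0.05 and 0.65, with a median of 0.25, where the median over all positions was 0.11. Averaging neighbouring replicate columns instead gave an SD over 4 column pairs of 0.10 to 1.12, with a median of 0.40 (all positions 0.24). For 119 of the 127 members the spread over column pairs was above that over tree numbers. A small SD over tree means can thus hide opposed columns: Q4N22 had an SD of 0.05 over tree means but 0.42 over column pairs.

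The largest SD over tree means belonged to Q4H5, Q4O4 and Q5L2. Q4H5 had -1.57, -1.85, -3.95 and -4.55 on Cx in Cy3 replicates 1 to 4 and -3.43, -4.02, -3.73 and -2.96 on Cx in Cy5 replicates 1 to 4. Only the first pair of Cx in Cy3 columns stood apart, above -2, and the other 6 arrays were at or below -2.96. Its mean was -3.26 ± 0.65 (SD, n = 4), while Q4O4 had -2.79 ± 0.57 and Q5L2 -1.78 ± 0.56 (SD, n = 4 each).

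In a robust regression of limma on the 4 tree means, 111 of the 127 members (87.4%) reached at least 1.5-fold on the negative side at a p of 0.001 or less after Benjamini-Hochberg adjustment, where 8.38% of all positions did (354 of 4223). The rule used the same ratios, so nothing is read from that share. Adjusted p-values of all members were at most 0.00825. Among the 16 members that missed the limit were Q4H5 (adjusted p = 0.00125), Q5L2 (adjusted p = 0.00635), Q4M5 (adjusted p = 0.00825) and Q8L3 (adjusted p = 0.00508). With every array scaled to the same median absolute deviation, 25 members passed in place of 111. The columns that share a slide or a tree are not separate units, so these p-values may be too small.

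Whether the ratio differed between the dye orientations was compared as the dye effect, a quantity the rule did not use. It is the mean of the Cx in Cy3 arrays minus that of the Cx in Cy5 arrays, divided by 2. Slide, hybridisation and possibly tree changed together with the dye and cannot be told apart from it. Members were spread around 0 in this comparison, with a median of 0.01 and a range of -0.63 to 0.78, and 71 were above 0 and 56 below. Over all positions the median was -0.04, with 41.5% above 0. With limma on the 4 tree numbers, 2 members (1.57%) reached 1.5-fold at an adjusted p of 0.05 or less, against 0.568% of all positions (24 of 4223) and 0 of the 56 positions at or above 1.5. At an unadjusted p of 0.05 or less there were 37 members (29.1%), against 35.3% of all positions and 16 of the 56 positions (28.6%) at or above 1.5.

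**Figure D3:**
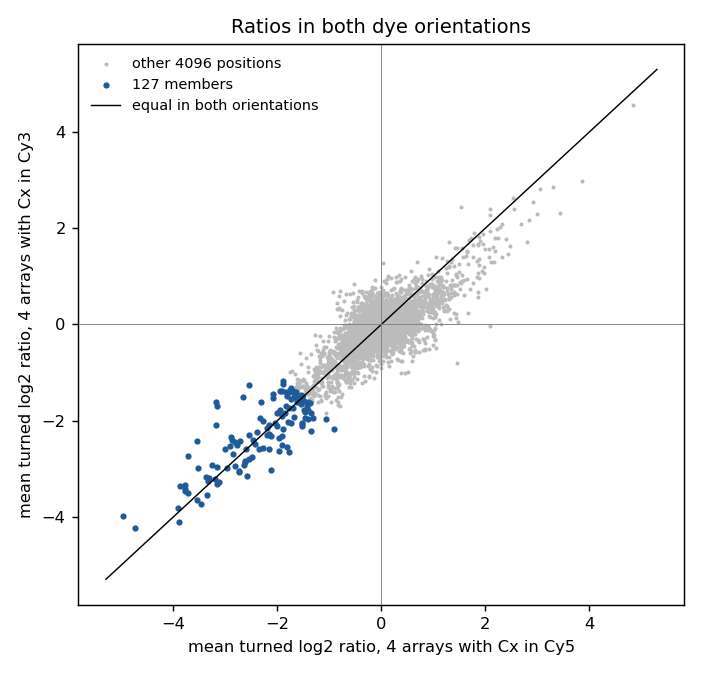
Mean turned log2 ratio over the 4 arrays with Cx in Cy3 (vertical axis) and over the 4 arrays with Cx in Cy5 (horizontal axis) for the 127 members (blue) and the other 4096 positions (grey), with the line of equal means. The members lie on both sides of the line, 71 above it and 56 below it, and the dye effect stays within -0.63 to 0.78.

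The 2 members were Q10N3 and Q1C8. Q10N3 had -1.58, -1.65, -1.499 and -1.75 on Cx in Cy3 replicates 1 to 4 and -2.67, -2.80, -3.48 and -3.76 on Cx in Cy5 replicates 1 to 4. The orientations did not overlap, and the ratio was further from 0 with Cx in Cy5. The dye effect was 0.78 (limma, adjusted p = 0.0391). Q1C8 went the other way, with a dye effect of -0.67 in the robust fit (limma, adjusted p = 0.0196). Both calls were lost when any tree number was left out, and with 4 column pairs as units 0 members passed.

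Q9P21 and Q11O2 had the next largest dye effects by the plain mean, and their pattern resembled that of Q10N3. Q9P21 had ratios from -1.82 to -1.63 with Cx in Cy3 and from -3.78 to -2.44 with Cx in Cy5, and the dye effect was 0.73 (limma, adjusted p = 0.0653). Q11O2 had ratios from -1.38 to -1.03 with Cx in Cy3 and from -3.04 to -2.07 with Cx in Cy5, and the dye effect was 0.64 (limma, adjusted p = 0.0650). The orientations did not overlap in either, and neither passed the test. With its own mean removed, each of Q10N3 and Q11O2 had Q9P21 as its most similar member over the 8 arrays (r = 0.99 and r = 0.98).

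Next, the replicate pairs were compared within each orientation, as the mean of replicates 3 and 4 minus the mean of replicates 1 and 2. This difference was also no part of the rule. For members, a value above 0 means a ratio closer to 0 in replicates 3 and 4. Its error was the spread between neighbouring columns, which may be copies on 1 slide, and trees, slides and hybridisations of a pair cannot be told apart. With limma, 43 members (33.9%) reached 1.5-fold at an adjusted p of 0.05 or less with Cx in Cy3, against 10.2% of all positions, and 40 members (31.5%) passed with Cx in Cy5, against 8.55% of all positions. Members have larger ratios than most positions, and the 56 positions at or above 1.5 passed in 24 cases (42.9%) and in 12 cases (21.4%) in the same comparisons.

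Most members that passed were closer to 0 in replicates 3 and 4. With Cx in Cy3 these were 32 members above 0 (25.2%, against 6.65% of all positions) and 11 below (8.66%, against 3.58%), and with Cx in Cy5 they were 34 members above 0 (26.8%, against 4.17% of all positions) and 6 below (4.72%, against 4.38%). The median difference over the 127 members was 0.18 with Cx in Cy3, against 0.38 with Cx in Cy5, where it was 0.03 in each orientation over all positions. For the 56 positions at or above 1.5 the medians were 0.34 and -0.24. Of these, 20 passed above 0 and 4 below with Cx in Cy3, and 4 above and 8 below with Cx in Cy5. Above 0 means further from 0 for them, so with Cx in Cy3 most calls of both sides were upward. With equal scale on every array, the count with Cx in Cy3 was 98 members, 94 of them above 0, where 15.0% of all positions passed. This count thus depended on the scale given to the arrays, of which Cx in Cy3 replicates 1 and 2 had the narrower bulk.

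The extremes of the pair difference went both ways. Q4H5, with the ratios given above, had -2.54 with Cx in Cy3 (limma, adjusted p = 0.00366). Q4M5 had -2.38, -2.34, -0.22 and -0.53 on Cx in Cy3 replicates 1 to 4 and -1.55, -1.84, -1.66 and -2.001 on Cx in Cy5 replicates 1 to 4. Its Cx in Cy3 pairs stood far apart and its Cx in Cy5 pairs were alike, with a difference of 1.98 in the first orientation (limma, adjusted p = 0.00122) and -0.14 in the second.

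Q4L5 differed in both orientations, in opposite directions. It had -2.40, -2.23, -0.44 and -0.94 on Cx in Cy3 replicates 1 to 4 and -1.53, -2.36, -3.20 and -3.60 on Cx in Cy5 replicates 1 to 4. Replicates 3 and 4 were thus the highest with Cx in Cy3 and the lowest with Cx in Cy5. The differences were 1.63 in the Cx in Cy3 arrays and -1.46 in the Cx in Cy5 arrays. For Q6L21, whose ratios with Cx in Cy5 were -4.40, -4.58, -2.78 and -3.35 on replicates 1 to 4, the difference was 1.43 (limma, adjusted p = 0.00365), and for Q5L2, with -1.90, -2.12, -0.57 and -0.83 there, it was 1.31 (limma, adjusted p = 0.0012).

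The direction of the pair difference was mostly above 0 in both orientations, while its size did not follow from one orientation to the other position by position. Of the 127 members, 64 had both differences above 0, 10 had both below, 34 had the one with Cx in Cy3 below and the one with Cx in Cy5 above, and 19 the reverse. Across members the 2 differences had r = -0.26 (n = 127 positions), across all positions r = -0.11. Only 10 members (7.87%, against 2.04% of all positions) passed in both orientations, 6 of them with opposite signs (4.72%, against 1.21% of all positions). Another 54 members (42.5%, against 83.3% of all positions) passed in neither orientation.

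**Figure D4:**
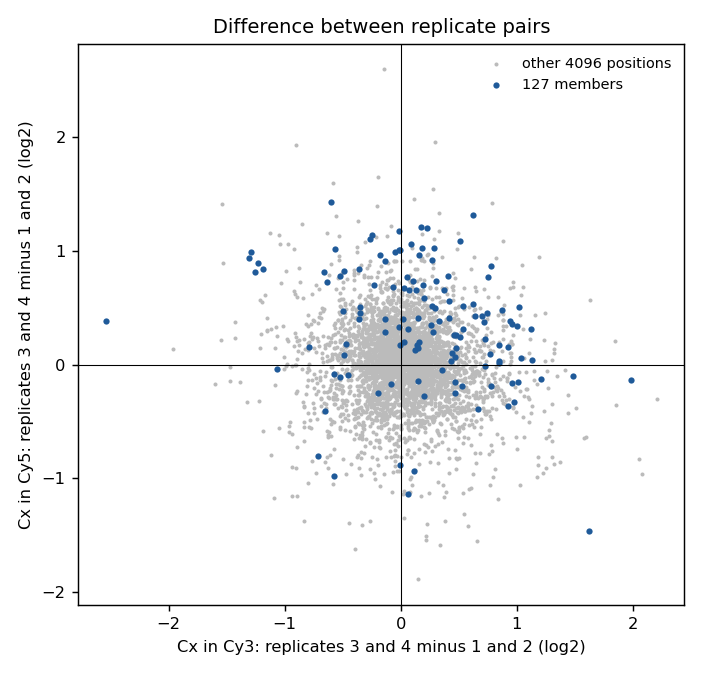
Difference between replicate pairs, replicates 3 and 4 minus 1 and 2 (log2), with Cx in Cy3 (horizontal axis) and Cx in Cy5 (vertical axis) for the 127 members (blue) and the other 4096 positions (grey). Of the members, 98 (77.2%) lie above 0 on the vertical axis and 83 (65.4%) on the horizontal one, against 53.8% and 54.6% of all positions.

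The same was seen in the shares of the spread among the 8 arrays. For the members, the difference between replicate pairs took 58.4% of the sum of squares around each position's mean, dye orientation 31.9% and neighbouring columns 9.75%. Over all positions the shares were 40.2% for replicate pairs, 42.9% for orientation and 16.8% for neighbours. The 56 positions at or above 1.5 had nearly the members' shares, with 58.1% for replicate pairs, 34.6% for orientation and 7.25% for neighbours. The large share of replicate pairs was thus not particular to the members. Across members, neighbouring columns of one orientation correlated with r = 0.94 to 0.96 (4 pairs of columns), while the columns of one tree number in opposite orientations reached r = 0.59 to 0.69 (4 pairs) and those of different tree numbers in opposite orientations r = 0.51 to 0.88 (12 pairs). These correlations are across 127 positions, which are no independent replicates and were chosen on the same arrays.

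Members were concentrated on a few plates of the clone collection, a property that the rule did not use. Plate Q4 held 39 members, plate Q5 25 and plate Q6 20, which was 10.2%, 6.51% and 5.21% of the positions on each. The other 8 plates held 2 to 12 members each, with 12 on plate Q3. Grouped after their counts were seen, plates Q4 to Q6 held 84 of the 127 members (66.1%, exact binomial 95% interval 57.2% to 74.3%, counting error only), 7.30% of their 1151 positions, against 1.40% of the 3072 positions on the other plates. The same plates held 3 of the 56 positions at or above 1.5, and the other plates held 53.

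**Figure D5:**
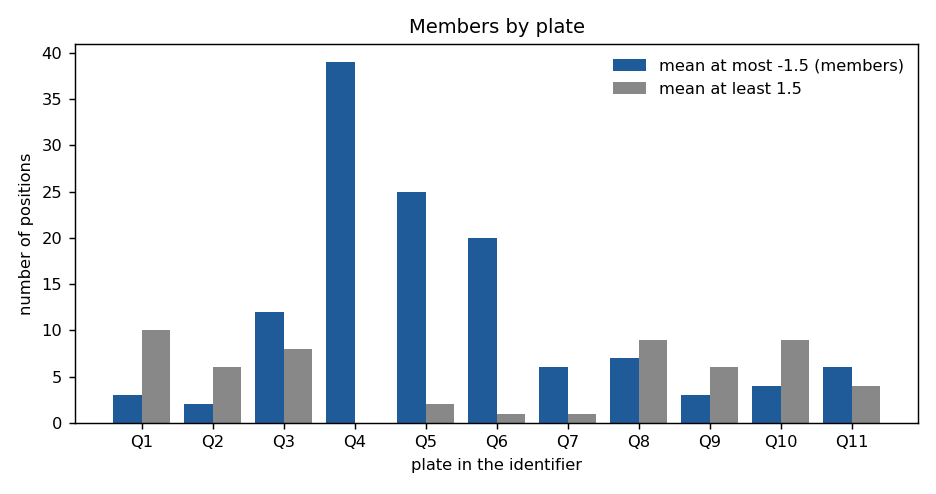
Number of positions (vertical axis) with a mean turned log2 ratio of at most -1.5 (members, blue) and of at least 1.5 (grey) on each of the 11 plates named in the identifiers (horizontal axis). Plates Q4, Q5 and Q6 hold 39, 25 and 20 members, against 0, 2 and 1 positions at or above 1.5.

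The lowest ratios were on the same plates. Of the 22 members at or below -3, 20 were on plates Q4 to Q6 and 2 elsewhere, and of the 12 lowest, 11 were there and the other, Q3I20, was on plate Q3. The median of the members was -2.24 on plates Q4 to Q6 and -1.85 on the others. The plates as a whole were not shifted to that extent, since the median of all positions was -0.10, -0.01 and -0.01 on plates Q4, Q5 and Q6 and between -0.09 and 0.17 on the others. The lower tail was longer instead, with a 5th percentile of -2.42 on plate Q4, -1.76 on Q5 and -1.54 on Q6, against -1.33 to -0.44 on the others. The shares of members on plates Q4 to Q6 already place these percentiles below -1.5, so they restate the member counts. Which of the 4 libraries filled which plate is not given in the sources used here, so plate and library cannot be told apart.

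Within plates the members were scattered. Each of the 16 rows held 1 to 12 members (median 8) and each of the 24 columns 1 to 10 (median 5), and 25 members had another member in a neighbouring well, 23 of them on plates Q4 to Q6. By odd and even rows and columns the counts were 25, 37, 32 and 33. Plates also differed in the pair differences. All 12 members of plate Q3 were closer to 0 in replicates 3 and 4 with Cx in Cy3, with a median of 0.81. The whole of plate Q3 was shifted the same way, with a median over all its positions of 0.25, against -0.12 to 0.11 on the other 10 plates. The median with Cx in Cy5 was 0.47 for the members on plates Q4 to Q6 and 0.22 for those on the other plates, while with Cx in Cy3 it was 0.14 on plates Q4 to Q6 and 0.42 on the other plates.

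The members did not move as a single block over the 8 arrays. With each position's own mean removed, the 8001 pairs of members had a median r of 0.21 and a range of -0.98 to 1.00, and 234 pairs (2.92%) were at or above 0.9. For each member the most similar other member had a median r of 0.95, and it was on the same plate for 24 of 127. Shared plates also arise from the uneven plate counts alone, so nothing about plates is read from this number. The closest pair was Q5J2 and Q5H2 (r = 1.00 after rounding), followed by Q5L2 and Q5I11 (r = 0.99). With 8 arrays in 4 nearly doubled columns such values are easily high, and they are given as a description only.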

How the data were processed

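The 8 arrays compared Cx with Ox in 2 dye orientations, and groups and replicate numbers came from the labels. According to the methods and the submitters' processing notes, the authors read spots with GenePix, corrected the background with normexp, took the log2 ratio between the dyes and applied print-tip loess with limma 2.14.5 in R 2.7.1, and the deposited values are these log2 ratios. The stated removal of dim spots was not visible, as the table has no empty cell. For this array the study reports fewer printed clones, and fewer spots kept after filtering, than the 4223 positions here. Members and all positions may thus include controls, empty wells or spots that the study discarded as dim or flagged. The RNA came from 4 bent trees of different ages.

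The 4 arrays titled opposite against compression were turned by -1 with pandas 2.3.3. Unturned, arrays of opposite orientation correlated with r = -0.81 to -0.65 over all positions. With limma 3.58.1 in R 4.3.3, the xylem contrast and the dye effect were fitted to 4 tree units, each joining the same-numbered arrays of both orientations as the labels give them, by robust regression with at most 100 iterations, and the replicate pairs by least squares to 8 arrays. Calls needed 1.5-fold and an adjusted p of at most 0.001 for the xylem contrast or 0.05 otherwise, adjusted over all 4223 positions. The scripts were tested on simulated data with independent noise, sized by the spread between neighbouring columns. This noise had no part shared by a replicate pair or an orientation, unlike the real ratios. Unadjusted p was 0.05 or less for 8.20% of unchanged positions in the xylem contrast (limma). It was so for 7.21% in the dye effect and 5.49% in the replicate pairs (limma). False calls after adjustment were 0, 0 and 3. The members and lists were chosen with earlier results of these data known. Named positions were the 12 lowest means, the 3 nearest the limit on each side, and the 3 members with the largest or smallest SD over trees, largest dye effect and largest pair difference in each orientation. Q1C8, Q2C9, Q5H2, Q5J2 and Q5I11 are named outside this rule, chosen after their values were seen. Deviations of same-numbered arrays in both orientations correlated with r = -0.12 to -0.04, so the ratios gave no sign that same-numbered arrays vary together, and 4 column pairs served as alternative units. Alternatives changed the centring, scale, limits, unit of replication and regression, or left out replicates. Gene names were not analysed here.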

Additional observations from a re-analysis of the deposited data

Results flagged for a closer look

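Q4L13 had a ratio of -3.69 on Cx in Cy3 replicate 1, while the other 3 arrays of that orientation lay at -3.85, so this array stood apart from its group relative to the group's narrow range. Of 62 groups of 4 arrays that were checked in this way, this was 1, and chance alone gives about 1 in 20 for independent values. Neighbouring replicates lay close together here, so that rate does not hold for these groups.

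Q10N3 differed between the dye orientations, with a mean of -1.62 when Cx carried Cy3, against -3.18 when Cx carried Cy5. The dye effect, this difference divided by 2, was 0.78 (limma over 4 tree numbers, adjusted p = 0.0391), and the ratio was closer to 0 with Cx in Cy3 in 4 of 4 tree numbers. The call was not reached with 4 column pairs as units or with any tree number left out.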

How the results depend on the processing

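The choice of limit moved the number of members the most: 193 positions passed at a looser limit (a mean closer to 0 by 0.25) and 70 at -2, where plates Q4 to Q6 held 75.7% of them. Leaving out a replicate number gave 115 to 137 members, leaving out a column pair 117 to 145, and each orientation alone 125 (Cx in Cy3, 108 shared with the 127) and 132 (Cx in Cy5, 113 shared). On the xylem contrast, 354 positions were called on the negative side, and this became 105 with 4 column pairs as units, 106 with equal scale on every array and 175 to 235 with a replicate number left out. Of the members, 111 were called, 25 with equal scale, 75 with 4 column pairs and 92 to 107 with a replicate left out. With the tree number as a replicate block the counts were 515 positions and 127 members, at an estimated block correlation of -0.45. That fit had no term for dye orientation, so differences between the orientations of a tree number entered the correlation. The higher counts are therefore not read further. The block correlation was negative, so this fit too gave no sign that same-numbered arrays vary together.

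For the dye effect, the 24 positions and 2 members called became 0 and 0 with 4 column pairs, at an adjusted p of 0.001 and without any one of the replicate numbers (0 to 0 in each). At an unadjusted p of 0.05 or less, 4 column pairs held 16 members (12.6%, against 19.6% of all positions). Leaving out a replicate number held 28 to 33 members (22.0% to 26.0%), against 20.9% to 24.0% of all positions. The adjusted p of 0.001 changed only the limit, so its unadjusted counts are those of the main fit (37 members, 29.1%, against 35.3%). Least squares called 34 of 4223 positions and 4 of the 127 members, and equal scale 22 positions and 5 members. For the replicate pairs, an adjusted p of 0.001 left 27 positions and 2 members with Cx in Cy3 and 31 positions and 2 members with Cx in Cy5. Equal scale gave 635 positions and 98 members with Cx in Cy3. Of the 28 named positions under 9 alternatives of the xylem contrast, 0 values changed sign, 44 lost the call and 12 gained it. The cause of these changes was not tested. The few arrays, nearly doubled columns and absent intensities limit the precision.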
